A study of Mus musculus with 13 samples.

Results

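The neurexins, neuroligins and LRRTMs form adhesion pairs across the synaptic cleft. The 9 members described here, Nrxn2, Nrxn3, Nlgn1, Nlgn2, Nlgn3, Lrrtm1, Lrrtm2, Lrrtm3 and Lrrtm4, were found by gene symbol and were 9 of the 55291 symbols in the count files. All 9 passed the count minimum of 150 (the mean normalized count over the libraries of a comparison) in each comparison. RNA was sequenced from the CA1 region of wildtype C57BL/6 mouse entorhino-hippocampal tissue cultures, slices of entorhinal cortex and hippocampus grown on a membrane. Cultures were made at postnatal day 4 to 5 and matured for at least 18 days in vitro, and all groups shared this background. The 13 libraries, each from 1 culture, comprised 5 non-lesioned controls, 4 cultures after Schaffer collateral lesion (SCL), which cuts the CA3 axons that reach CA1, and 4 after entorhinal cortex lesion (ECL), which cuts the perforant path. Lesioned tissue was taken 3 days after a scalpel cut, without the scar. The cut removes axons in a slice that has no blood supply and no other brain regions, and bulk CA1 tissue mixes neurons and glia.

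Neurexins are anchored mainly in the axon terminal, where their extracellular domains bind partners on the facing dendrite. Neuroligins and LRRTMs are such postsynaptic partners, and both recruit scaffold and receptor proteins to the contact. Alternative splicing of the neurexins and neuroligins sets which partners they bind: at the neurexin site called splice site 4, the insert weakens binding to LRRTMs, whereas neuroligins bind neurexins with and without it. A gene count sums all of these forms, so the levels below do not show which form was present.

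Inserts of this kind are printed because the counts cannot tell them apart. They were read from GENCODE M21 transcripts (GRCm38), with the exon in capitals and 15 bases of each neighbouring exon in lower case, 5′ to 3′ on the gene's strand. Each of the 5 exons was present in some coding transcripts of its gene and skipped in others. The splice site 4 exon of Nrxn3 lies at chr12:90199147-90199236 (+). The neuroligin exons of the site called A lie at chr3:25920178-25920237 (−) in Nlgn1, chr11:69830563-69830613 (−) in Nlgn2, and chrX:101303072-101303131 (+) and chrX:101307075-101307134 (+) in Nlgn3, which has a pair of such exons.
Nrxn3 splice site 4: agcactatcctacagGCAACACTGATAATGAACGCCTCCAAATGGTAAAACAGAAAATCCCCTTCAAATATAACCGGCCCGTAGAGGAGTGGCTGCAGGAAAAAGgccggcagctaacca
Nlgn1 site A: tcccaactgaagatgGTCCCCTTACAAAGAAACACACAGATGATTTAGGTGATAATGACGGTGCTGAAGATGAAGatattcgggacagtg
Nlgn2 site A: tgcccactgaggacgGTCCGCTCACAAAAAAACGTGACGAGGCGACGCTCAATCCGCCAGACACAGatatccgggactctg
Nlgn3 site A, upstream exon: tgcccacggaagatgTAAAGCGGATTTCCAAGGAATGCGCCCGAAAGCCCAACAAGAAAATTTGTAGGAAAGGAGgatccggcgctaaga
Nlgn3 site A, downstream exon: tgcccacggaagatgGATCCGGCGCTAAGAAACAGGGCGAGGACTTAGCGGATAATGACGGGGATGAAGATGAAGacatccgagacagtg
The 60-base exon of Nlgn1 matched the downstream exon of Nlgn3 at 43 of 60 positions (71.7%) and the upstream one at 16 of 60 (26.7%).

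Nrxn3 fell after both lesions, and Lrrtm2 fell after SCL. Nrxn3 was at 0.489-fold of the control level after SCL and at 0.470-fold after ECL, and Lrrtm2 was at 0.707-fold after SCL. Under 23 alternative settings run after SCL, Nrxn3 passed the test in all 23 and Lrrtm2 in 16. The other members did not pass the test in either lesion. Of 9 members, 2 were called after SCL and 1 after ECL by edgeR's quasi-likelihood test with Benjamini-Hochberg adjustment over all genes tested (adjusted p under 0.05). Over all genes, 24.9% of 11438 were called in SCL against control and 27.8% of 11212 in ECL against control, so the members' counts did not exceed the background. All 3 calls were toward lower levels, where the background was 11.8% after SCL and 12.5% after ECL. Members had a median log2 fold change of -0.27 (SCL) and -0.29 (ECL), against 0.01 and -0.01 for all genes tested. The members' medians depend on the scaling. They were -0.063 and -0.10 with scaling over all symbols, where all genes had medians of 0.21 and 0.18. With a correction for gene length and GC content they turned to 0.12 and 0.032, where all genes had 0.16 and 0.16. With the scaling factors re-estimated after that correction, a version added after the data were seen, they were -0.036 and -0.12, where all genes were at -0.0017 and 0.0028. Both lesions were compared with the same 5 control cultures.

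**Figure D1:**
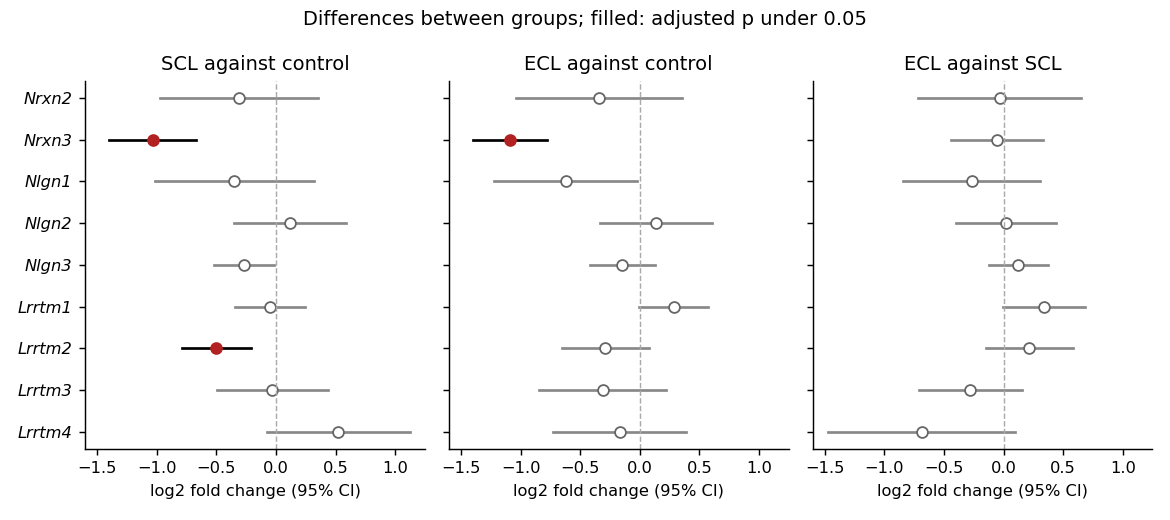
Log2 fold change (points) with its 95% confidence interval (lines) of each member, for SCL against control, ECL against control and ECL against SCL. Filled points mark adjusted p under 0.05: Nrxn3 in both lesions and Lrrtm2 after SCL.

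Libraries held 14371152 to 56786613 counts, with controls at 14371152 to 21092612, SCL at 16405517 to 56786613 and ECL at 20210165 to 46449937. Between 163 (Nrxn2) and 10118 (Nrxn3) counts fell on a member in a library. Levels are given in CPM, the count relative to the scaled total of its library. One description of the tissue in the labels names the dentate gyrus, whereas titles and source name CA1. The 5 CA1 pyramidal cell markers were above 0 in every library and summed to 193 to 406 CPM. The 4 dentate granule cell markers summed to 12.0 to 24.1 CPM. Microglial markers were higher with the lesions: 8 of 8 were called higher after SCL and 4 of 8 after ECL, and their summed level was 270 to 326 CPM in controls, 528 to 1159 after SCL and 456 to 829 after ECL. Of 8 neuronal markers, 2 were called lower after SCL and 3 after ECL (1 and 1 by DESeq2, 0 and 0 with scaling over all symbols), and their summed level was 4111 to 5204 CPM in controls, 3638 to 4823 after SCL and 3524 to 5061 after ECL. Of 6 astrocyte markers, 3 were called higher in SCL cultures, while in ECL cultures 2 passed upward and 1 downward, and of 5 oligodendrocyte markers 2 were called higher after each lesion. Of 6 interneuron markers, Gad1 was lower after SCL (-0.41), and Gad1 (-0.62) and Slc32a1 (-1.12) after ECL. The others were not called: after SCL and ECL, Gad2 was -0.09 and -0.12, Sst 0.23 and 0.31, Pvalb 0.04 and 0.15, and Vip 0.03 and -0.04. The interneuron markers summed to 1217 to 1948 CPM in controls, 1504 to 1902 after SCL and 1283 to 2050 after ECL. Of the 5 CA1 markers Pou3f1 was lower after SCL (-0.82). Called genes of these 2 lists were named after their values were seen. No marker of these lists was at 0 in all libraries. In bulk tissue fewer cells of a type and less RNA per cell cannot be told apart. The part of these markers in the results below was not tested.

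Nrxn3 (ENSMUSG00000066392.11, 12:88722876-90334935, +, GRCm38) spans the longest stretch of the members and is a presynaptic neurexin with long and short forms. Its level was 321, 392, 438, 415 and 420.1 CPM in the 5 controls. It was 155, 174, 186 and 262 CPM after SCL, and 157, 188, 210.4 and 188 CPM after ECL. Every lesioned culture lay below every control. The lowest control was at 321 CPM, and the highest lesioned culture at 262 CPM after SCL and 210.4 CPM after ECL. Of all genes, 11.5% lay without overlap toward lower levels after SCL and 12.2% after ECL. Group means were 397 ± 45.6 CPM (SD, n = 5) in controls, 194 ± 47.0 (n = 4) after SCL and 186 ± 21.95 (n = 4) after ECL. On the log2 scale the fold change was -1.03 (SE 0.17, adjusted p = 0.00239) after SCL and -1.09 (SE 0.14, adjusted p = 0.000230) after ECL. The difference between the lesions was -0.05 (95% interval -0.44 to 0.33, adjusted p = 0.975). A correction for gene length and GC content moved the lesion values to -0.62 after SCL and -0.69 after ECL (adjusted p = 0.00893 and 0.00100), a change of over 1.5 times on the log2 scale. Its exons overlap those of Gm37980 on the other strand, which held 0 to 52 counts in a library, over 3.48% of their bases, and counting without strand cannot separate them.

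Nrxn2 (ENSMUSG00000033768.17, 19:6418731-6544169, +) was the least abundant member. Its level was 9.10, 22.6, 15.3, 9.83 and 11.2 CPM in controls, 7.39, 10.7, 10.1 and 15.8 CPM after SCL, and 6.80, 8.30, 17.0 and 10.7 CPM after ECL. The ranges overlapped in both lesions. The log2 fold change was -0.31 (95% interval -0.98 to 0.35, adjusted p = 0.482) after SCL and -0.34 (-1.04 to 0.35, adjusted p = 0.460) after ECL. Of the summed level per kilobase of exon of Nrxn2 and Nrxn3, Nrxn3 made up 97.0% ± 1.16 in the 5 controls, 95.1% ± 0.529 in the 4 SCL cultures and 95.1% ± 1.43 in the 4 ECL cultures.

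**Figure D2:**
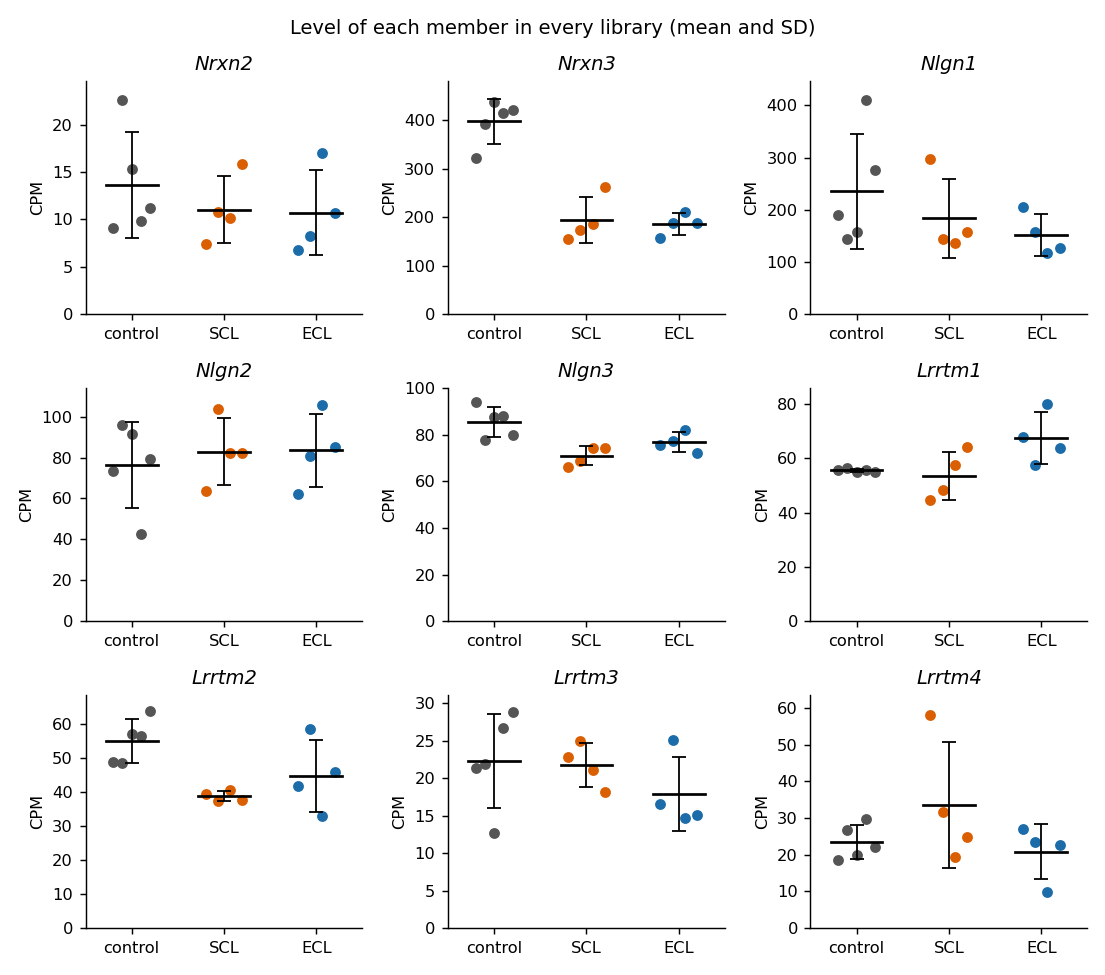
Level of each member in CPM (linear axes from 0) in the 5 control, 4 SCL and 4 ECL libraries. Points are libraries, horizontal lines are group means and bars are SD. Nrxn3 has no overlap between controls and either lesion, whereas Nlgn1 has a wide spread among controls.

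Nlgn1 (ENSMUSG00000063887.13, 3:25426215-26332460, −), the neuroligin mostly at excitatory synapses, had the widest spread of the members in absolute level. It was at 190.1, 145, 158, 410.0 and 275 CPM in controls, 297, 144, 136 and 158 CPM after SCL, and 206, 157, 118 and 127 CPM after ECL. Control 4 and SCL 1 stood above the rest of their groups, and the groups overlapped. This gave a log2 fold change of -0.35 (SE 0.31, adjusted p = 0.429) after SCL and -0.62 (SE 0.28, adjusted p = 0.110) after ECL. Without control 4 it was -0.07 after SCL and -0.33 after ECL (adjusted p = 0.876 and 0.273). With the length and GC correction the SCL value turned to 0.24, without a call.

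Nlgn2 (ENSMUSG00000051790.15, 11:69823122-69837784, −), found mostly at inhibitory synapses, did not pass the test. It was at 73.3, 95.8, 91.4, 42.5 and 79.3 CPM in controls, 63.6, 104, 82.4 and 82.1 CPM after SCL, and 62.2, 81.0, 106 and 85.3 CPM after ECL. The lowest values belonged to control 4, SCL 1 and ECL 1, the libraries that were highest in Nlgn1 in their groups. Its log2 fold change was 0.11 (95% interval -0.36 to 0.58) after SCL and 0.13 (-0.33 to 0.60) after ECL.

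Across the 13 libraries, deviations of log2 level from the group means were opposite for Nlgn1 and Nlgn2 (Pearson r -0.886, given as a description, since the points share the library). The longest transcript of Nlgn1 has 38.9% GC and that of Nlgn2 60.7%, and the median over 11492 genes was 48.5%. In control 4 the deviations of all genes fell with GC content (Spearman rho over genes -0.461), as they did in SCL 1 (-0.295), while in control 3 and ECL 3 they rose with it (0.461 and 0.535). The part of GC content in the values of Nlgn1 and Nlgn2 was not tested. In ECL 2, rho was -0.522 and the ratio of Nlgn1 to Nlgn2 was 1.94. The ratio was 3.31 in ECL 1, 1.12 in ECL 3 and 1.49 in ECL 4.

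**Figure D3:**
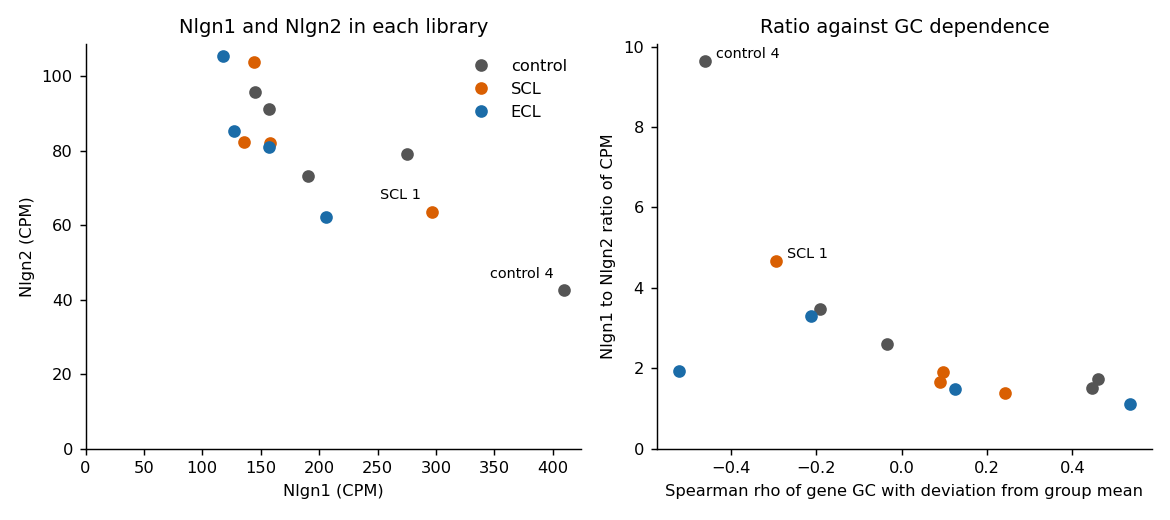
Left, Nlgn2 against Nlgn1 (CPM), with 1 point for each library, coloured by group. Right, the ratio of Nlgn1 to Nlgn2 in CPM against the Spearman correlation, over genes, of GC content with the deviation of that library from its group mean. Control 4 has the highest ratio (9.64) and ECL 3 the lowest (1.12).

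Nlgn3 (ENSMUSG00000031302.16, X:101299168-101325963, +), which acts at both kinds of synapse, varied little among controls. It was at 94.0, 77.9, 87.6, 88.2 and 79.9 CPM in controls, 66.1, 68.8, 74.3 and 74.4 CPM after SCL, and 75.8, 77.2, 82.2 and 72.3 CPM after ECL. Every SCL culture lay below every control, but the adjusted p was 0.101 at a log2 fold change of -0.27 (95% interval -0.52 to -0.02). It was -0.063 with scaling over all symbols and turned to 0.040 with the length and GC correction (-0.12 with factors re-estimated). Groups did not overlap for 3 of the 9 members after SCL (Nrxn3, Nlgn3 and Lrrtm2, all lower), beside 23.6% of all genes in either direction and 11.5% toward lower levels. After ECL the groups overlapped and the log2 fold change was -0.15 (adjusted p = 0.411). Of its exon bases, 41.2% are shared with Gm21986 on the same strand, which held 0 to 28 counts in a library, so counts of Nlgn3 are uncertain by an unknown share. Among the neuroligins, in CPM per kilobase of exon, Nlgn1 made up 42.5% ± 14.1 of the sum in controls (n = 5), Nlgn2 34.2% ± 12.0 and Nlgn3 23.3% ± 3.27. The share of Nlgn1 was 37.6% ± 11.7 after SCL and 33.3% ± 8.65 after ECL (n = 4 each), within the spread of the controls.

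Lrrtm2 (ENSMUSG00000071862.3, 18:35209003-35215024, −), a leucine-rich repeat protein of excitatory postsynapses, fell after SCL. It was at 48.8, 48.7, 57.2, 56.4 and 63.8 CPM in controls and at 39.5, 37.4, 40.6 and 37.8 CPM after SCL. After ECL it was at 41.8, 58.4, 33.0 and 45.9 CPM. The SCL cultures lay close together and below all controls, while the ECL cultures overlapped the controls. The log2 fold change was -0.50 (SE 0.13, adjusted p = 0.0175) after SCL and -0.29 (SE 0.17, adjusted p = 0.229) after ECL. The difference between the lesions was 0.21 (95% interval -0.15 to 0.58, adjusted p = 0.818), so the lesions were not shown to differ. Of the summed LRRTM level per kilobase, Lrrtm2 held 25.0% ± 2.43 in controls (22.4% to 28.01%), 18.6% ± 1.01 after SCL (17.6% to 19.9%) and 19.9% ± 4.42 after ECL, a share that does not depend on the scaling between libraries. The share does depend on the other LRRTMs: Lrrtm4 held 26.2% in SCL 1, against 8.79% to 12.4% in controls. It was not corrected for GC content, 38.4% in the longest transcript of Lrrtm2 and 54.7% in that of Lrrtm1. The SCL call was kept under 16 of 23 alternative settings. It was lost when the library scaling used all symbols (-0.29, adjusted p = 0.143), with a length and GC correction (-0.17, adjusted p = 0.370) and without SCL 2 (-0.48, adjusted p = 0.0542). It was also lost with factors re-estimated after that correction, with no count minimum, with the label numbers as a block and at a threshold of 0.01.

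Lrrtm1 (ENSMUSG00000060780.2, 6:77242689-77257791, +), a postsynaptic neurexin partner of the same family, had nearly equal levels in the controls. It was at 55.7, 56.2, 55.1, 55.8 and 54.9 CPM in controls, a coefficient of variation of 1.00%. These values rest on 815 to 1068 counts in a library, and whether so small a spread is a trait of the gene was not tested. Lrrtm1 was at 44.6, 48.2, 57.4 and 64.0 CPM after SCL, on both sides of the controls. It was at 68.0, 57.4, 80.1 and 63.8 CPM after ECL. Every ECL culture lay above every control, the lowest (57.4) only just above the highest control (56.2). Its log2 fold change was -0.05 (SE 0.14, adjusted p = 0.805) after SCL and 0.28 (SE 0.13, adjusted p = 0.129) after ECL. In ECL against control, groups did not overlap for 2 of the 9 members, Nrxn3 (lower) and Lrrtm1 (higher), beside 25% of all genes, 12.2% lower and 12.8% higher. Where the scaling used all symbols, Lrrtm1 was called after ECL (0.47, adjusted p = 0.0288).

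Lrrtm3 (ENSMUSG00000042846.8, 10:63928472-64090277, −) and Lrrtm4 (ENSMUSG00000052581.13, 6:80018877-80810143, +) were the least abundant LRRTMs per kilobase in controls. Lrrtm3 was at 21.3, 21.96, 12.7, 26.8 and 28.9 CPM in controls, 22.8, 25.0, 21.2 and 18.1 CPM after SCL and 16.6, 25.2, 14.7 and 15.1 CPM after ECL. Its log2 fold change was -0.03 (SE 0.22) after SCL and -0.31 (SE 0.25) after ECL, and neither passed. Lrrtm4, which also binds glypicans, was at 18.6, 26.7, 20.002, 29.7 and 22.2 CPM in controls and 27.0, 23.5, 9.83 and 22.5 CPM after ECL. After SCL it was at 58.2, 31.7, 19.5 and 24.9 CPM, with SCL 1 far above the others. The log2 fold change after SCL was 0.52 (SE 0.28, adjusted p = 0.182), and without SCL 1 it was 0.12 (adjusted p = 0.735). It was called higher with the length and GC correction (0.85, adjusted p = 0.0306), though not with factors re-estimated (0.68, adjusted p = 0.0705), and with no count minimum (0.73, adjusted p = 0.00929). After ECL it was -0.17 (adjusted p = 0.668). An antisense gene, Gm4409, shares 25.1% of the exon bases of Lrrtm4 and held 0 to 5 counts in a library. Counts of Lrrtm4 are therefore uncertain by an unknown share.

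Lrrtm1, Lrrtm2 and Lrrtm3 lie inside the alpha-catenin genes Ctnna2, Ctnna1 and Ctnna3, on the opposite strand. Alpha-catenins link cadherins to actin. These genes were chosen from their position. Ctnna2 had 70.8 ± 13.1 CPM in the 5 controls, 48.1 ± 10.5 in the 4 SCL cultures and 34.6 ± 5.56 in the 4 ECL cultures. Its log2 fold change was -0.56 (SE 0.18, adjusted p = 0.0423) after SCL and -1.02 (SE 0.17, adjusted p = 0.000996) after ECL. The SCL call stayed in edgeR with median-of-ratios factors (-0.56, adjusted p = 0.0418). It was lost by DESeq2 (-0.48, adjusted p = 0.0629) and by edgeR with scaling over all symbols (-0.34, adjusted p = 0.150). In edgeR it was also lost with the length and GC correction (-0.34, adjusted p = 0.140) and with factors re-estimated (-0.50, adjusted p = 0.0558). Lrrtm1 was not called in either lesion. Ctnna1 was not called in either (-0.04 and -0.25), and Ctnna3 had 12 to 85 counts and was not tested.

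**Figure D4:**
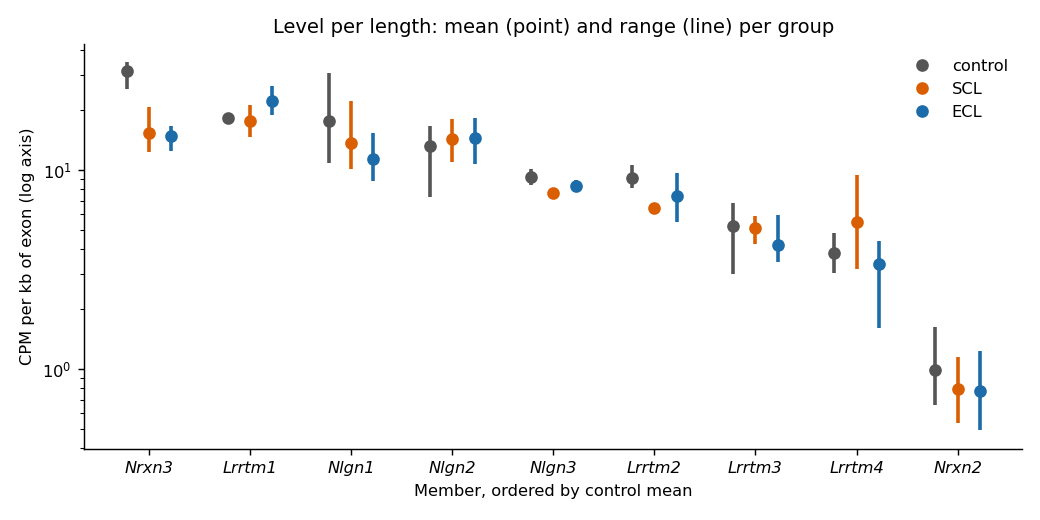
Level of each member per kilobase of exon (log axis) by group: points are means and lines the range over libraries, ordered by the control mean. Nrxn3 is highest in controls, and Lrrtm1 has the highest mean after both lesions.

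Per kilobase of union exon length (GENCODE M21, whereas counting used M25), the order in controls was Nrxn3 (31.5 ± 3.61, n = 5), Lrrtm1 (18.3), Nlgn1 (17.5), Nlgn2 (13.2), Nlgn3 (9.22), Lrrtm2 (9.13), Lrrtm3 (5.25), Lrrtm4 (3.81) and Nrxn2 (0.985). Nrxn3 lay above Lrrtm1 in every control library, with no overlap of the ranges. Lrrtm1, Nlgn1, Nlgn2 and Nlgn3 each overlapped the next in the order, as did Lrrtm3 with Lrrtm4, so neighbours there do not differ beyond their spread. After SCL, Lrrtm1 (17.7) and Nrxn3 (15.4) overlapped. After ECL, Lrrtm1 (22.2) lay above Nrxn3 (14.7) without overlap. Nrxn2 was lowest in every group. The lengths include exon bases shared with other genes, 41.2% of them in Nlgn3 and 25.1% in Lrrtm4. Where reads on these bases were counted is not known, so the places of Nlgn3 and Lrrtm4 are uncertain.

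Of 14 ligands that bind neurexins from outside the cell, 8 were tested. By edgeR, 24.9% of all genes were called after SCL and 27.8% after ECL, and 0 of the 8 ligands in either lesion. At an unadjusted p under 0.05, 2 passed after SCL and 2 after ECL, and DESeq2 called 1 lower after SCL and 0 after ECL. With the length and GC correction 2 were called higher in each lesion, and with factors re-estimated 1 was called lower in each. The ligands' median log2 fold change was -0.18 in SCL and -0.28 in ECL. It was 0.025 and -0.091 with scaling over all symbols, -0.0074 and 0.013 with the correction, and -0.17 and -0.15 with factors re-estimated.

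Of 10 intracellular partners tested, 3 fell after each lesion and none rose. Over all genes, 11.8% were called lower after SCL and 12.5% after ECL (24.9% and 27.8% in either direction). Apba2, the adaptor Mint2 of the neurexin tail, was at 257 ± 55.5 CPM in controls (n = 5), 148 ± 21.8 after SCL and 123 ± 30.0 after ECL, with 4 cultures in each lesion. It fell by 0.79 on the log2 scale after SCL (adjusted p = 0.00715) and by 1.06 after ECL (adjusted p = 0.00158). Dlg4, the scaffold PSD-95 that binds neuroligin tails, fell by 0.59 after SCL (adjusted p = 0.0134) and by 0.71 after ECL (adjusted p = 0.0238). Dlg3, the related scaffold SAP102, fell by 0.47 after ECL (adjusted p = 0.0403). Dlg4 was not called with scaling over all symbols (-0.38 after SCL and -0.53 after ECL), nor with either version of the length and GC correction. Dlg3 after ECL was not called with scaling over all symbols (-0.28) or with the correction (-0.30), but was with factors re-estimated (-0.45, adjusted p = 0.0230). Scaling over all symbols left 1 of 10 called lower in each lesion, and with the correction 1 was lower in each and 1 higher after ECL. The partners' medians were -0.21 and -0.12. They turned to 0.00072 and 0.061 with scaling over all symbols, and were -0.032 and 0.16 with the correction and -0.20 and -0.0024 with factors re-estimated.

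Of 8 regulators, 2 fell after each lesion and none rose. Over all genes, 11.8% were called lower after SCL and 12.5% after ECL (24.9% and 27.8% in either direction). Adam10, a protease that sheds neurexins and neuroligins, was at 302 ± 142 CPM in controls, 138 ± 26.1 after SCL and 99.1 ± 15.2 after ECL. It fell by 1.12 on the log2 scale after SCL (adjusted p = 0.0120) and by 1.60 after ECL (adjusted p = 0.00101). Khdrbs3, the RNA-binding protein SLM2 that acts on neurexin splice site 4, fell by 0.58 after SCL (adjusted p = 0.0166) and by 0.75 after ECL (adjusted p = 0.00342). With scaling over all symbols Khdrbs3 was not called after SCL (-0.38, adjusted p = 0.0636). The regulators' medians were -0.29 and -0.35, -0.088 and -0.17 with scaling over all symbols, 0.065 and 0.045 with the length and GC correction, and -0.095 and -0.12 with factors re-estimated.

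Of the other synaptic adhesion families, 10 of 27 genes tested fell after SCL and 8 of 26 after ECL. Over all genes, 11.8% were called lower after SCL and 12.5% after ECL. None of the genes of these families rose by edgeR, while DESeq2 called 1 higher after ECL. Their medians were -0.36 and -0.33, -0.15 and -0.15 with scaling over all symbols, -0.023 and 0.060 with the length and GC correction, and -0.18 and -0.098 with factors re-estimated. The teneurin Tenm3 was at 76.1 ± 21.4 CPM in controls, 38.2 ± 7.02 after SCL and 36.2 ± 5.97 after ECL, and fell by 0.99 and 1.06 on the log2 scale. The latrophilin Adgrl3, a receptor for teneurins, fell by 0.96 after SCL, and the teneurin Tenm2 fell by 0.95. After ECL, Slitrk2, a ligand of presynaptic receptor phosphatases, fell by 1.10, and Flrt1, of a family that binds latrophilins, fell by 1.06. Adgrl3 (-0.99) and Tenm2 (-0.68) were also called lower after ECL, and Flrt1 (-0.90) after SCL. Slitrk2 was not called after SCL (-0.62, adjusted p = 0.148 by edgeR). In ECL against SCL, 0 of 27 genes of these families were called higher and 0 lower. With scaling over all symbols 5 fell and 1 rose after SCL, and 6 fell and 1 rose after ECL. With the length and GC correction 4 fell and 4 rose after SCL (Adgrl3 was not called), and 5 fell and 4 rose after ECL (Slitrk2 was not called). With factors re-estimated 6 fell and 1 rose after SCL and 6 fell and 0 rose after ECL, and Adgrl3 after SCL (-0.59) and Slitrk2 after ECL (-0.79) were called.

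ECL against SCL asks whether the lesions differ. By edgeR, 0 of 12232 genes were called (897 at an unadjusted p under 0.05, and 65 by DESeq2 after adjustment), and 0 of 9 members were called by either tool, beside 0% of all genes by edgeR. At an unadjusted p under 0.05, 0 of 9 members passed. The largest differences among members were Lrrtm4 (-0.69, 95% interval -1.47 to 0.10) and Lrrtm1 (0.34, -0.01 to 0.68). Groups did not overlap for 3.83% of all genes (1.55% higher and 2.27% lower) and for no member (0 of 9).

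Levels were compared with all other genes over the 13 libraries as deviations from group means. The gene most alike, of 11640, was Pigo for Nrxn2 (r 0.975), Apc for Nrxn3 (0.943), Ypel5 for Nlgn1 (0.967), Inf2 for Nlgn2 (0.973), Runx1 for Nlgn3 (0.882), Eepd1 for Lrrtm1 (0.945), Zfp157 for Lrrtm2 (0.908), Pdzd8 for Lrrtm3 (0.942) and Api5 for Lrrtm4 (0.928). These are the largest of many correlations over few libraries and share library depth and GC content.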

How the data were processed

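Raw counts of 13 libraries were used. According to the methods of the study and the submitters' processing notes, adapters were removed with cutadapt 3.5, reads were mapped with STAR 2.7.8a to mm10 (GRCm38), and featureCounts 2.0.1 counted reads without strand on GENCODE M25, and the authors deposited these as whole-number counts per gene symbol without normalization. Libraries were made by a low-input kit with amplification. Low counts were mostly even: 63.0% to 74.3% of those between 1 and 20, by library, as when both reads of a fragment are counted.

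Genes whose mean normalized count (median-of-ratios size factors) reached 150 were fitted in edgeR 4.0.16 (R 4.3.3; TMM factors over the genes tested, quasi-likelihood test, two-sided, Benjamini-Hochberg adjustment over all genes, threshold 0.05), separately for each comparison; SE is the log2 fold change divided by the root of F. DESeq2 1.42.0 and mgcv 1.9.3 (length and GC offset) served alternatives. Display values are CPM with TMM factors over 11649 genes. Lengths and GC were found for 53292 of 55291 symbols.

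The members and gene lists were chosen with earlier results of these data known. By the naming rule, all 9 members are named in every comparison, up to 3 called genes per list, direction and lesion with the largest change, and the gene most alike for each member; 1 called gene of the intracellular partners and 1 exon sequence are not reported here. Each culture is 1 sample, and nothing says whether cultures came from separate animals, so p-values cover the spread between cultures. Sex, read from column headings, was unbalanced between the groups. The procedure was tested on simulated counts: for SCL against control (11284 genes), 73.2% of genes changed 2-fold and 100% of those changed 4-fold were recovered, and for ECL against control (11072 genes) 69.1% and 100%. Among the simulated calls 2.96% (SCL) and 7.51% (ECL) were false. The simulation used the fitted spread, changed few genes, as many up as down, and added no GC or length effect. In the real counts 24.9% (SCL) and 27.8% (ECL) of genes were called, and deviations followed GC content in several libraries. The simulated shares therefore cannot be carried over to the real counts.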

Additional observations from a re-analysis of the deposited data

Results flagged for a closer look

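In SCL 1, Nlgn1 was at 297 CPM, while the other SCL cultures were at 136 to 158 CPM, and its gap to the nearest of them was 0.865 of the group's range, above Dixon's limit for 4 samples. Of 27 groups of a member examined, 1 passed such a limit, and chance passes about 1 in 20. The correlation of GC content with the deviation of SCL 1 from its group, over genes, was -0.295, and its part in this value was not tested. Without SCL 1 the log2 fold change of Nlgn1 after SCL was -0.68, without a call, while leaving out control 4 moved it the other way. Over the 23 alternatives run it ranged from -0.68 to 0.24 and was called in 0.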

How the results depend on the processing

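Nrxn3 was called lower under all 23 alternatives run after SCL (-1.21 to -0.62, highest adjusted p 0.0115) and all 22 after ECL (-1.16 to -0.69, highest adjusted p 0.00155). Lrrtm2 after SCL was called under 16 of 23 (-0.55 to -0.17). The precision of Nrxn2, with as few as 163 counts in a library, and of Nlgn1, with its spread among controls, leaves wide intervals. All members passed the count minimum with the counts as deposited, so the exact test for members under it had no case. With counts halved, Nrxn2 fell under the minimum in SCL against control. The other 8 members were then tested, and Nrxn3 and Lrrtm2 were still called. A setting without control 4 and SCL 1, a block by heading number and an offset with re-estimated factors were chosen after seeing the data. Unless a smaller number of libraries made them, the cause of the changes below was not tested.

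With scaling over all symbols, the median of all genes was 0.21 after SCL and 0.18 after ECL (0.01 and -0.01 as reported), and calls split into 2516 higher and 596 lower, and 2435 and 695 (1504 and 1344, and 1708 and 1406, as reported). Then 1 member was called after SCL and 2 after ECL, where Lrrtm1 joined (0.47), and signs turned, without a call, for Lrrtm1 (0.15) and Lrrtm3 (0.17) after SCL and Nlgn3 (0.045) and Lrrtm4 (0.031) after ECL. With no minimum, the same 4 values were 0.15, 0.17, 0.045 and 0.031, 5390 genes were called after SCL (3168 higher, 2222 lower), 8034 after ECL (3453 and 4581) and 217 between lesions, Lrrtm4 was called after SCL (0.73) and Lrrtm2 was not (-0.29). With the length and GC offset, the median was 0.16 in both lesions, calls split into 2291 and 801, and 2609 and 1050, Lrrtm4 was called after SCL (0.85), and signs turned for Nrxn2 (0.21), Nlgn1 (0.24), Nlgn3 (0.040) and Lrrtm3 (0.12) after SCL, for Nrxn2 (0.032), Nlgn3 (0.17), Lrrtm2 (0.031) and Lrrtm4 (0.16) after ECL, and for Nlgn2 between lesions (-0.030). With its factors re-estimated, 1 member, Nrxn3 (-0.77), was called after SCL while Lrrtm2 was not (-0.33, adjusted p = 0.0847 by edgeR), and signs turned for Nrxn2 (0.056) and Nlgn1 (0.064) after SCL, Nlgn3 (0.012) after ECL and Nlgn2 (-0.040) between lesions.

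By DESeq2, Lrrtm1 (0.014) and Lrrtm3 (0.035) turned sign after SCL, and 65 genes were called between lesions. With filterByExpr they were 0.0095 and 0.031, and without both control 4 and SCL 1 they were 0.016 and 0.010. With a sex term, Nlgn2 was -0.0042 after ECL and -0.14 between lesions, where 1 gene was called, as in a single fit of all libraries (1). At a threshold of 0.01, 1045 genes and 1 member were called after SCL and 1492 genes after ECL. As shares of counts without length, Nlgn1 held 56.9%, 52.9% and 48.2% of its family and Lrrtm1 35.7%, 36.6% and 45.2% (control, SCL, ECL).

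The label numbers did not pair the cultures: correlations of same-numbered deviations ran from -0.10 to 0.24 (SCL and control), -0.17 to 0.43 (ECL and control) and -0.14 to 0.55 (between lesions). With the replicate block, 2342, 2663 and 0 genes were called, 1 member, Nrxn3 (-1.03), was called after SCL while Lrrtm2 was not (-0.44, adjusted p = 0.0625 by edgeR) and Lrrtm3 was 0.11. With the heading number as a block, 1824 genes were called after SCL and Lrrtm3 was 0.031.

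Leaving out each culture in turn gave 1679 to 2797 genes (lowest without SCL 3) and 1 to 2 members (1 without SCL 2) after SCL, and 0 to 54 genes between lesions (54 without SCL 3, 2 without ECL 4). The ranges after SCL were -0.044 to 0.22 for Nlgn2, -0.15 to 0.026 for Lrrtm1 and -0.17 to 0.075 for Lrrtm3. After ECL they were -0.027 to 0.26 for Nlgn2 and -0.31 to 0.066 for Lrrtm4, and between lesions -0.35 to 0.19 for Nrxn2, -0.15 to 0.13 for Nrxn3, -0.44 to 0.070 for Nlgn1 and -0.12 to 0.14 for Nlgn2.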
